A study of Caenorhabditis elegans with 2 samples.

Results

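Genes for the enzymes that methylate lysine 4 of histone H3 (H3K4), and for the proteins that work beside them, were examined in *Caenorhabditis elegans* for regions bound in chromatin immunoprecipitation sequencing (ChIP-seq) of the nuclear hormone receptor NHR-77. The 7 genes were set-16, set-2, ash-2, wdr-5.1, rbbp-5, utx-1 and cfp-1, out of 19973 protein-coding genes on the nuclear chromosomes of the annotation. The set was chosen by the strong set-16 peak of the pooled list, that is, on the same signal values that are described here, and no test is made on them. A region belonged to a gene where its summit lay inside the gene or within 2000 bp of the annotated 5' end. By this rule 28 of the 30000 pooled regions belonged to the 7 genes.

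The study mapped eGFP-tagged NHR-77 in whole L2 larvae of strain OP353, in 1 group with 2 biological replicates. Both replicates carried the same genotype, unc-119(tm4063) III with the integrated transgene wgIs353, and held males and females. The antibody is listed under the name nhr-77, while the assay is described as directed against the eGFP fusion. The tagged protein came from a transgene in an unc-119 mutant, and whole larvae mix all cell types, so a region cannot be placed in a tissue. The files were lists of regions with a signal value, the peak caller's own score with no stated scale, and a −log10 q-value. A list of both replicates pooled and a list of each replicate were relaxed, meaning that they also hold weak regions, and a further list held the 415 peaks past the authors' reproducibility threshold. Every peak was among the 415 highest pooled regions, and the lowest peak had signal 27.07, with the next pooled region at 27.02. The files give no read depth for any list, so signal sizes were compared within a list only and ranks were used between lists, with rank 1 the highest. Replicate 1 had 23256 regions, of which 23 were mitochondrial and took 15 of its 25 highest places, and replicate 2 had 30000 and no mitochondrial region.

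Methylation of H3K4 is found at the starts of active genes and at enhancers, and it is laid down by complexes of the COMPASS family. In these complexes 1 methyltransferase sits on a shared core whose subunits include ASH-2, WDR-5.1, RBBP-5 and DPY-30. In *C. elegans* the methyltransferase is either SET-2, the counterpart of yeast Set1, or SET-16, the counterpart of the mammalian MLL3 and MLL4 enzymes. CFP-1 binds CpG-containing DNA and belongs to the SET-2 complex, and UTX-1 removes methyl groups from lysine 27 of histone H3 and is a partner of SET-16.

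2 of the 7 genes had a peak, set-16 and ash-2, and 3.04% of all protein-coding genes (607 of 19973) had one by the same rule. Since the set was picked for the set-16 peak, nothing is read from that count. The summit sequences of both are shown because they carry the strongest signal of the set, together with those of set-26 and jmjd-1.2, the histone methylation genes of the other lists that had a peak. All are the plus strand of build ce11, read from the RefSeq genome assembly WBcel235, at chrIII:13643600-13643899 for set-16, chrII:11980252-11980411 for ash-2, chrIV:16656391-16656550 for set-26 and chrIV:4660430-4660589 for jmjd-1.2. The capitals mark an inverted repeat, TGGC, any 5 bases, then GCCA, which reads the same on both strands.
set-16: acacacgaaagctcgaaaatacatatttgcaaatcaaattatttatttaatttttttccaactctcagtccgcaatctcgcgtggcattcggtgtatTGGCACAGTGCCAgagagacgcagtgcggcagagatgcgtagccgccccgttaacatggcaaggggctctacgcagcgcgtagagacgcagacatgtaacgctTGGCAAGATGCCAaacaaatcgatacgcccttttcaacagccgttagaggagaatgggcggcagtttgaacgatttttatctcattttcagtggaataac
ash-2: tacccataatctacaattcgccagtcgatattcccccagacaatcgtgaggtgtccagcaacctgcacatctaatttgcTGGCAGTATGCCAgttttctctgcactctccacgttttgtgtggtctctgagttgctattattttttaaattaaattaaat
set-26: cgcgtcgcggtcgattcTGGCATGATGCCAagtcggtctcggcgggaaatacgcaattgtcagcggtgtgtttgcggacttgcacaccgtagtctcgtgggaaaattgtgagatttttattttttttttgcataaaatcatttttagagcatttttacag
jmjd-1.2: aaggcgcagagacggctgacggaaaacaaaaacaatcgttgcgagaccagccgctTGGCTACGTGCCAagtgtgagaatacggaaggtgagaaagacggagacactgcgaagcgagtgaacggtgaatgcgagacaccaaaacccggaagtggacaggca
The repeat occurs 2 times in the set-16 sequence, at III 13643697 to 13643709 and 13643800 to 13643812, and 1 time in each of the other 3.

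set-16 (WBGene00011729, III 13643916 to 13656637, plus strand) had the highest region of the set. Its peak covered III 13643585 to 13643914 and had signal 103.0 in the pooled list, at rank 25. The overlapping region had signal 23.6 at rank 56 in replicate 1 and signal 77.4 at rank 23 in replicate 2. Both replicates placed it near the top of their lists, and among nuclear regions alone its rank in replicate 1 was 38. The summit of replicate 1 lay 19 bp from the pooled summit, and that of replicate 2 lay 0 bp from it. The −log10 q-value was 2.88, the highest that the pooled list holds, and the ash-2, set-26 and jmjd-1.2 peaks shared it. Of all protein-coding genes, 29 (0.145%) had a higher region.

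The set-16 summit, at III 13643750, lay in intergenic sequence 166 bp upstream of the 5' end of set-16. It also lay 180 bp from the 5' end of drr-2 (WBGene00011730, minus strand), which encodes an RNA-binding protein related to translation initiation factor eIF4H. The 5' ends of the 2 genes are 346 bp apart and point away from each other, so the peak cannot be assigned to set-16 rather than to drr-2. Of the 415 peaks, 160 (38.6%) lay between divergent starts, against 14.3% of the pooled regions below the threshold. These counts put no limit on the distance between the 2 starts, so they are not shares of starts as close as these.

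The other 5 regions of set-16 all lay inside the gene and were far weaker. The highest had signal 12.4 at pooled rank 3770, in a coding exon 3587 bp from the 5' end. It had rank 2185 in replicate 2 and no overlapping region in replicate 1. The next, in a coding exon at 9045 bp, had pooled rank 9218 and rank 4222 in replicate 2. The remaining 3 had pooled ranks 26167, 27783 and 28651, near the end of the list. None of the 5 was overlapped in both replicates. Of all pooled regions below the threshold 20.9% were (6172 of 29585), and with 5 regions nothing is read from the difference. At 12722 bp set-16 is the longest of the 7 genes, and its 6 regions came to 0.408 per kb of the window searched, against 0.309 over the windows of all protein-coding genes.

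**Figure D1:**
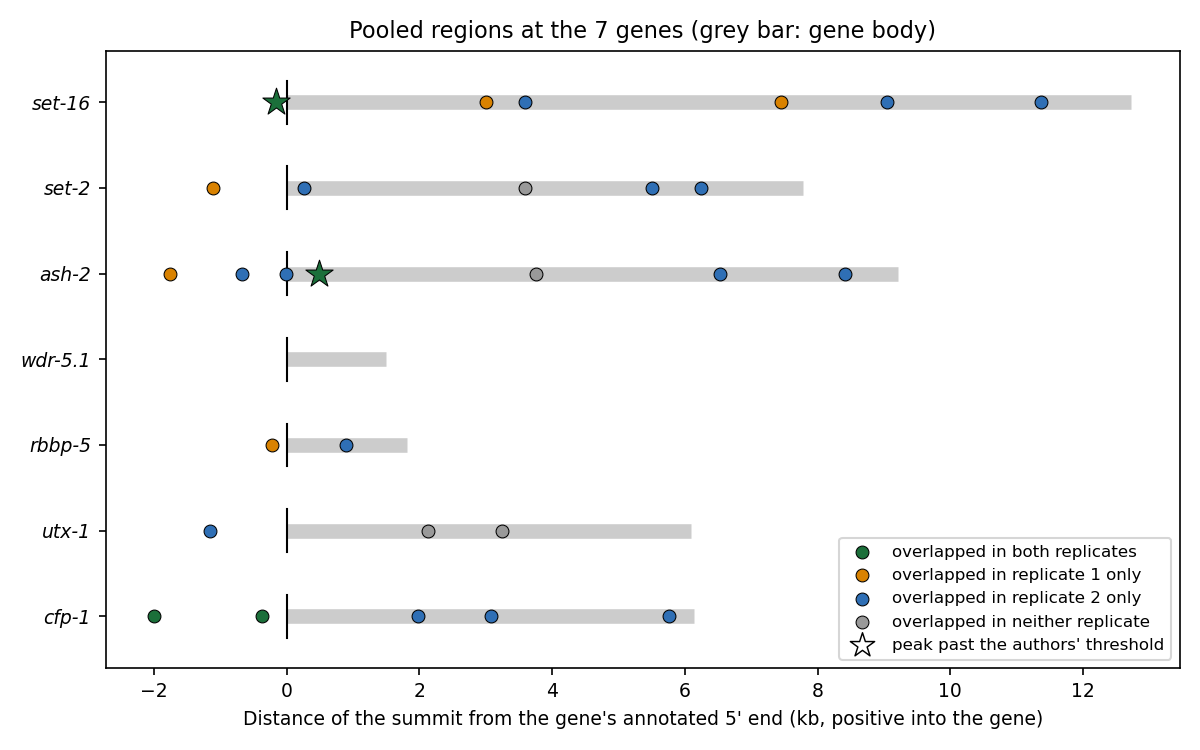
Pooled regions at the 7 genes. The horizontal axis gives the distance of each summit from the annotated 5' end of the gene in kb, with positive values into the gene, grey bars are gene bodies, stars are the 2 peaks and circles the other 26 regions, coloured by the replicate lists that overlap them. The star of set-16 sits 166 bp before the 5' end, and wdr-5.1 has no region.

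set-2 (WBGene00004782, III 4922427 to 4930204, minus strand) is the other methyltransferase gene. It had 5 regions and no peak. The highest, III 4931156 to 4931485, had signal 13.3 at pooled rank 2939, rank 20005 in replicate 1, where the summit was 192 bp away, and no overlapping region in replicate 2. It thus stood higher in the pooled list than in either replicate. The summit lay 1117 bp upstream of set-2, in a coding exon of its neighbour C26E6.12, whose 5' end was 932 bp away. A region in the first part of set-2, 267 bp from the 5' end in a coding exon, had pooled rank 16752 and rank 12667 in replicate 2. The remaining 3, at pooled ranks 18062, 18757 and 24386, lay in coding exons further along. A region with its summit 92 bp past the 3' end, pooled rank 4512, fell just outside the window. Of all protein-coding genes, 16.1% had a higher region than set-2.

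Among the genes of the shared core, ash-2 had a peak, rbbp-5 had weak regions and wdr-5.1 had none. The ash-2 gene (WBGene00012458, II 11979838 to 11989050, plus strand) had 7 regions, the most of the set. Its peak, II 11980167 to 11980496, had signal 52.8 at pooled rank 81. The overlapping region had signal 19.9 at rank 74 in replicate 1 and signal 36.1 at rank 99 in replicate 2. Among nuclear regions alone the rank in replicate 1 was 55, against 99 in replicate 2. The replicate summits lay 42 bp and 2 bp from the pooled summit. The −log10 q-value was again 2.88. Of all protein-coding genes, 129 (0.646%) had a higher region.

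Where the ash-2 peak sits depends on which transcript marks the start of the gene. The annotated 5' end belongs to a non-coding transcript, and the summit, II 11980332, lay 494 bp inside the gene in the first exon of that transcript. The outermost protein-coding transcript starts 588 bp further in, and the summit was 94 bp upstream of that start. The neighbour Y17G7B.20 (WBGene00012471, minus strand) has its 5' end 488 bp from the summit. With coding transcripts alone the peak lay between divergent starts 582 bp apart, as the set-16 peak did, and with the annotated gene ends, which overlap, it did not.

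The other 6 regions of ash-2 lay on both sides of the peak. The highest, signal 14.8 at pooled rank 2074, was 675 bp upstream in an intron of Y17G7B.20, and it had rank 2808 in replicate 2 and no overlapping region in replicate 1. A region in the 3' UTR of Y17G7B.20 had pooled rank 6196 and rank 2171 in replicate 1. The remaining 4 had pooled ranks from 9610 to 23148. None of the 6 was overlapped in both replicates, against the same 20.9% of all pooled regions below the threshold. With 6 regions nothing is read from that. The regions of ash-2 came to 0.624 per kb, the highest density of the set.

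rbbp-5 (WBGene00017683, II 6097830 to 6099645, plus strand) had 2 regions. The higher, II 6098560 to 6098889, had signal 10.3 at pooled rank 7111, no overlapping region in replicate 1 and rank 17583 in replicate 2. It lay 895 bp inside the gene, in a coding exon. The other, at pooled rank 16654, had rank 4002 in replicate 1 and none in replicate 2, and its summit was 218 bp upstream of rbbp-5 and 15 bp from the 5' end of the divergent neighbour tpp-2, the gene of tripeptidyl peptidase II. Each replicate held 1 region of rbbp-5, at different sites.

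wdr-5.1 (WBGene00006474, III 3705285 to 3706784, plus strand) had no pooled region and none in replicate 2. Replicate 1 had 2 regions there, at rank 8438, 1837 bp upstream, and at rank 17563, 24 bp inside the gene. The nearest pooled region, III 3707907 to 3708236, lay 787 bp outside the window and had signal 10.8 at rank 6121. The window of wdr-5.1, 4001 bp, was close to the median of 4027 bp over all protein-coding genes. A gene without a region is not shown to be unbound, because the lists hold a limited number of regions and the depth is unknown.

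utx-1 (WBGene00017046, X 8557146 to 8563238, plus strand) had 3 regions in the lower part of the list, the weakest of the 6 genes that had any. The highest, X 8559113 to 8559442, had signal 7.41 at pooled rank 18061 and lay 2132 bp inside the gene in an intron, with no overlapping region in either replicate. A further intronic region at pooled rank 18874 was in neither replicate as well. The replicate lists held other intragenic regions, at rank 22494 in replicate 1 and 18406 in replicate 2, that overlapped no pooled region. The last, at pooled rank 20619, lay 1157 bp upstream in the 3' UTR of dhhc-14 and had rank 19138 in replicate 2. Of all protein-coding genes, 59.4% had a higher region than utx-1.

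cfp-1 (WBGene00009924, IV 14077435 to 14083568, plus strand) had 5 regions. The highest, IV 14075276 to 14075605, had signal 9.99 at pooled rank 7921, rank 20036 in replicate 1, where the summit was 285 bp away, and rank 2485 in replicate 2. It lay 1994 bp upstream, just inside the limit, in a coding exon of the neighbour ccar-1. In replicate 2 the same region had its summit 2007 bp upstream, just outside, and a further pooled region 2255 bp upstream had signal 8.36 at rank 13231. Closer to the start, an intergenic region 370 bp upstream had pooled rank 17651 and stood in both replicates, at rank 6039 in replicate 1 and 10621 in replicate 2. The remaining 3, at pooled ranks 19520, 23507 and 29851, lay inside the gene.

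**Figure D2:**
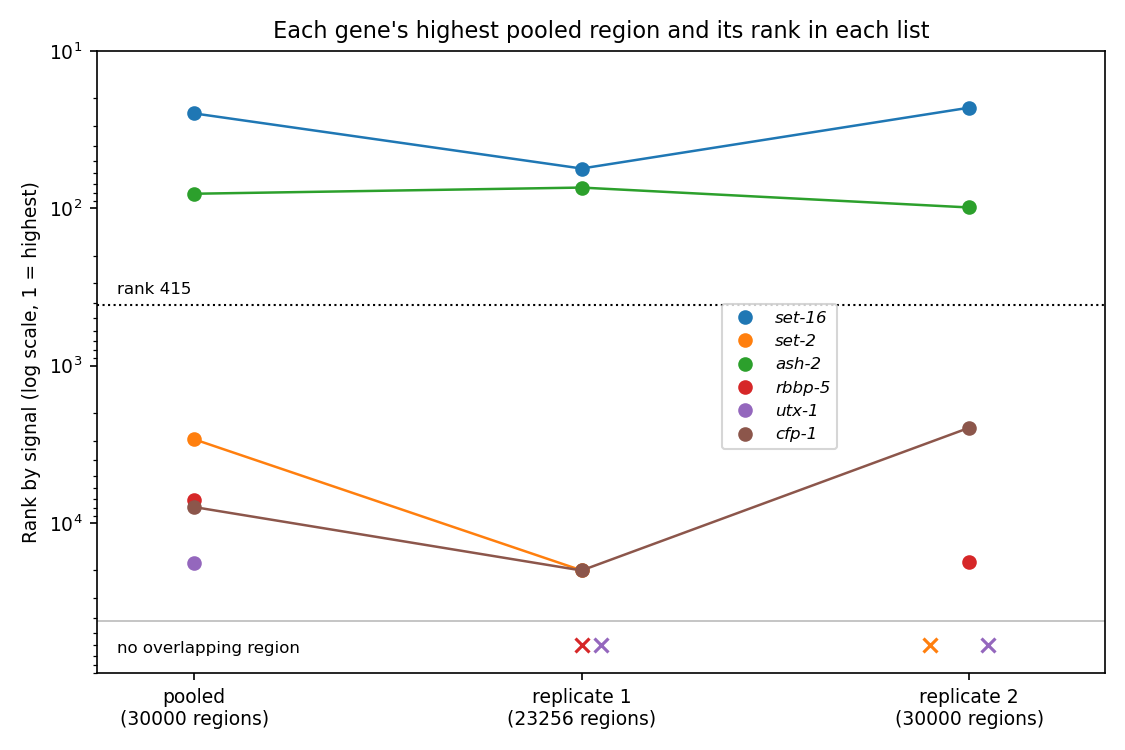
Rank by signal, on a log axis with 1 the highest, of the highest pooled region of 6 genes in the pooled list and of the region that overlaps it in each replicate. Lines join neighbouring lists where both hold the region, crosses mark lists without an overlapping region, and the dotted line marks rank 415; set-16 and ash-2 stay above the line in all 3 lists.

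Read against all genes, the presence of some region was ordinary. Any pooled region was at 6 of the 7 genes, and at 76.2% of all protein-coding genes (15227 of 19973), so the count of 6 is near the background. The median rank of the highest region was 5025 over the 6 genes and 9010 over all genes with a region. The 6 genes include set-16, for whose peak the set was picked, so nothing is read from the difference. Longer windows can hold more regions, and set-16, set-2, ash-2, utx-1 and cfp-1 had windows longer than the median.

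The 28 regions differed in how the replicates held them. The 2 peaks and the 2 upstream regions of cfp-1, 4 of the 28, were overlapped in both replicates, against 21.9% of all pooled regions (6581 of 30000). The count includes the peaks, so nothing is read from it. A further 5 were overlapped in replicate 1 only, 15 in replicate 2 only and 4 in neither. Over all pooled regions the shares were 15.2% for replicate 1 only, 48.3% for replicate 2 only and 14.6% for neither. Peaks as a class were nearly all held by both, 409 of 415. The pooled list was made from both replicates, so a place in a replicate list is not independent of a place in the pooled list. Over the 28 regions 16 had a pooled rank over 15000, and the median was 17201.5. By place, 12 summits lay in coding exons, 8 in introns, 3 in 3' UTRs, 1 in a 5' UTR, 1 in the non-coding exon of ash-2 and 3 in intergenic sequence.

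**Figure D3:**
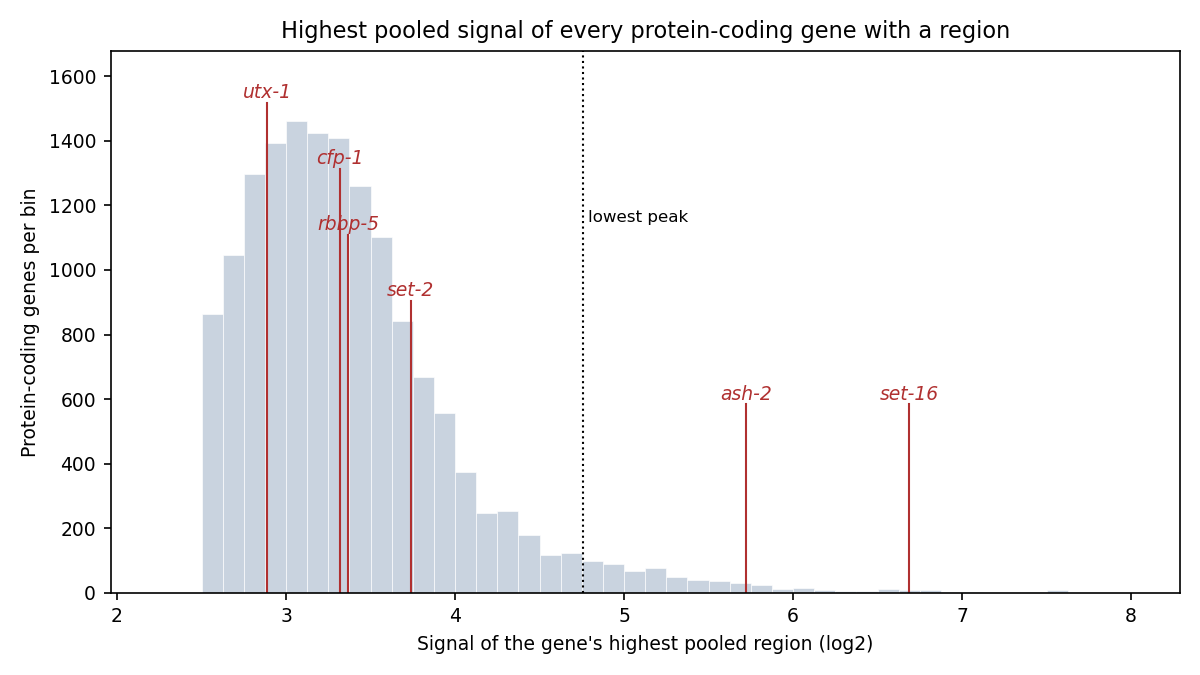
Signal of the highest pooled region, on a log2 scale, for the 15227 protein-coding genes that had a region, with the number of genes per bin on the vertical axis and 6 of the 7 genes marked. The dotted line is the lowest peak at signal 27.1; set-16 and ash-2 stand in the upper tail and the other 4 within the bulk of genes.

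Other genes of histone methylation were counted by the same rule. Of 33 annotated genes in 4 further lists, 27 had a pooled region and 2 a peak. The shares over all protein-coding genes were 76.2% and 3.04%, and with 33 genes nothing is read from the counts. The median rank of their highest region was 5039. Of the other COMPASS-related genes, 6 of 7 had a region and 0 a peak. The highest were dpy-30, the last core subunit, at signal 15.5 and pooled rank 1733, and wdr-5.3, a paralogue of wdr-5.1, at 12.3 and rank 3858. The dpy-30 region lay 392 bp upstream and had rank 814 in replicate 2 and none in replicate 1. All 4 H3K4 demethylase genes had a region and 0 a peak. The highest of these were rbr-2, of the KDM5 family, at signal 13.2 and rank 3011, and spr-5, a homologue of LSD1, at 11.5 and rank 4867.

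Both of these peaks were by genes of the lists for other histone methyltransferases and demethylases. With 3.04% of all protein-coding genes having a peak, nothing is read from the absence of peaks in the COMPASS-related and H3K4 demethylase lists. Of 15 other methyltransferase genes, 13 had a region and 1 a peak, and of 7 other demethylase genes, 4 had a region and 1 a peak. The peak by set-26, a gene for a protein with SET and PHD domains, covered IV 16656306 to 16656635 and had signal 39.8 at pooled rank 175, rank 197 in replicate 1 and rank 242 in replicate 2. Its summit was 588 bp upstream of set-26 and 142 bp from the 5' end of the divergent gene tsr-2. The peak by jmjd-1.2, a gene for a histone demethylase of the JmjC class, covered IV 4660345 to 4660674 and had signal 33.4 at pooled rank 261, rank 231 in replicate 1 and rank 204 in replicate 2. Its summit was 481 bp upstream of jmjd-1.2 and 309 bp from the divergent F29B9.11. At both peaks the neighbour's 5' end was the nearer one, so neither can be assigned to the histone methylation gene rather than to its neighbour. Below the threshold, the highest was mes-2, the gene of the methyltransferase of lysine 27 of histone H3, with a region 136 bp upstream at signal 24.8 and pooled rank 506. The replicates differed there, with rank 99 in replicate 1 and 4766 in replicate 2. Next was dot-1.1, the gene of a methyltransferase of the core of histone H3, with a region 188 bp upstream at signal 20.5, pooled rank 780, rank 1487 in replicate 1 and rank 670 in replicate 2. Of the demethylase genes without a peak, jmjd-2, of the KDM4 family, had an intronic region at signal 17.4 and pooled rank 1215, and jmjd-3.1, a relative of utx-1, had a region 239 bp upstream at pooled rank 10837. The jmjd-2 region stood lower in both replicates, at rank 13239 in replicate 1 and 7220 in replicate 2, and the jmjd-3.1 region was in replicate 2 only, at rank 10558.

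**Figure D4:**
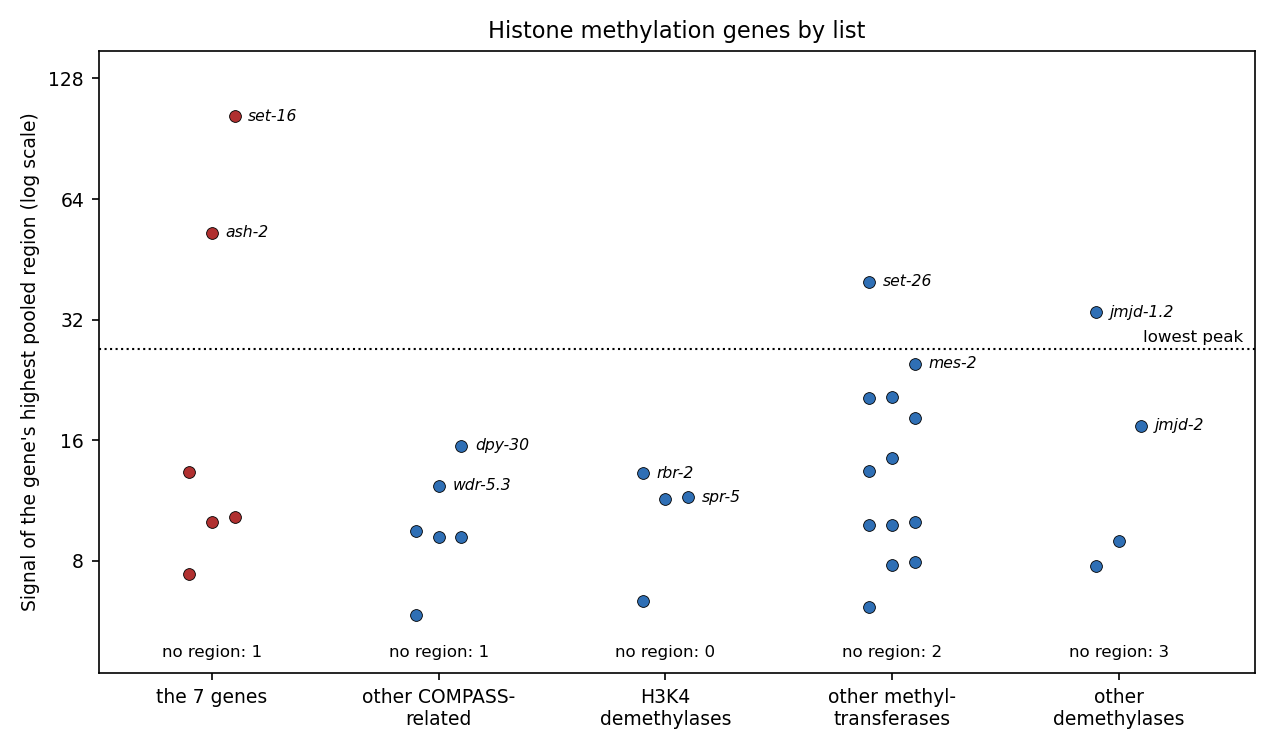
Signal of the highest pooled region of each gene, on a log axis, for the 7 genes and 4 further lists of histone methylation genes, with the number of genes without a region under each list. The dotted line is the lowest peak at signal 27.1; set-16, ash-2, set-26 and jmjd-1.2 lie above it.

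The peaks most like the set-16 peak in rank, among autosomal peaks within 500 bp of a gene start, were by rpl-35, mog-4, ska-3 and sec-61.G. Likeness was the sum over the 3 lists of absolute differences in log2 rank, which was 0.57 for rpl-35, 0.60 for mog-4, 0.76 for ska-3 and 0.91 for sec-61.G. The rpl-35 peak, by a ribosomal protein gene, had rank 24 in the pooled list, 43 in replicate 1 and 21 in replicate 2. The sec-61.G peak, by the gene of a subunit of the protein translocation channel, had ranks 32, 70 and 27 in the same order.

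In base composition the set-16 and ash-2 peaks lay on opposite sides of the other peaks. In the 200 bp on the summit, the set-16 peak had a GC content of 54.5% and 17 CG dinucleotides, and the ash-2 peak had 36.0% and 5. Over all peaks the GC content was 43.8% ± 7.23 (SD, n = 415) with a median of 11 CG, and over all pooled regions it was 34.8% ± 7.34 (SD, n = 30000) with a median of 6. Of the 415 peaks, 383 had a lower GC content than set-16 and 57 a lower one than ash-2.

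7 short motifs were searched on both strands of the same 200 bp windows. AGGTCA and AAGTCA, half-sites that nuclear receptors are known to bind, were in neither the set-16 nor the ash-2 window. AGGTCA was in 4.10% of peaks and 4.86% of pooled regions, and AAGTCA in 6.99% and 8.89%. The set-16 window held GAGAGA, found in 37.8% of peaks and 13.1% of pooled regions, and CCGCCC, found in 9.64% and 3.64%. TATAAA (14.2% of peaks, 22.4% of pooled regions), GCGCGC (13.5% and 1.98%) and CANNTG (58.3% and 51.7%) were in neither window, and the ash-2 window held none of the 7. A motif that is not found says only that these letters are not in the window.

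The inverted repeat marked in the sequences was noticed only after the set-16 and ash-2 sequences had been read, so its presence in them is a description. Its arms are those of the consensus known for nuclear factor I proteins, a background fact that says nothing of what is bound here. Nearest copies were centred 47 bp from the summit at set-16, 5 bp at ash-2, 57 bp at set-26 and 19 bp at jmjd-1.2. Of the 200 bp windows on the summits, 17 of 415 peaks (4.10%) and 139 of 29585 regions below the threshold (0.470%) held it. The 17 include the set-16 and ash-2 peaks, from which the arms and the 5 bases between them were taken. None of the other 26 regions of the 7 genes held it, and at a share of 0.470% nothing is read from that. In a window of 400 bp, the cfp-1 region at pooled rank 19520 held a copy of the repeat, 119 bp from its summit. With 3, 4 or 6 bases between the same arms no peak window held it, with 7 bases 1 did, and the counts over all pooled regions were 27, 35, 28 and 39, against 156 with 5 bases.

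**Figure D5:**
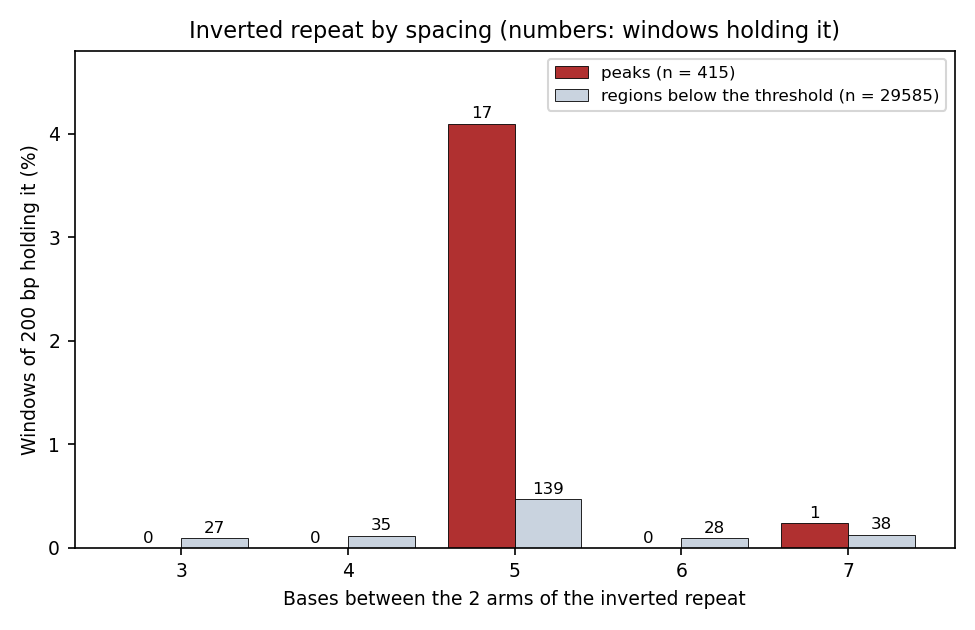
Share of 200 bp summit windows that hold the inverted repeat, in percent, by the number of bases between its arms, for the 415 peaks and the 29585 pooled regions below the threshold. Numbers on the bars are windows holding it. The form with 5 bases is held by 17 peaks, among them those by set-16 and ash-2, in which it was noticed.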

How the data were processed

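The samples were 2 biological replicates of 1 group. The files deposited by the authors were region lists in narrowPeak format: a relaxed list per replicate, one of both replicates pooled, and the list past a threshold on the irreproducible discovery rate. Their signal value is a score of the authors' peak caller with no stated scale, and the q-value column is −log10, as deposited. Per the text files deposited with the samples, alignments and a control file were the input of the relaxed lists, and peaks were called on pooled replicates. The control was not analysed here. Which aligner and peak caller were used is not given in the sources used here. Build ce11 was used, with positions counted from 1. The ce10 lists were not used.

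Genes came from Ensembl release 115 (WBcel235), where swd-3 was not found, and sequence from the RefSeq genome of the same assembly. Regions were assigned to genes by summit, and a region of a replicate list was matched to a pooled one by overlap and then nearest summit. Computation used Python 3.11.15, NumPy 2.4.6, pandas 2.3.3 and matplotlib 3.10.9, and the assignment was checked on simulated data.

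Named were all 7 genes with their highest region and others among the 5000 highest, the genes with the nearest 5' ends, the genes of the further lists with a peak or otherwise up to 2 per list, and the 4 genes with peaks most like that of set-16. Weaker regions and those just outside the window were added after their values were seen. Members, lists and rules were chosen with earlier results of these data known. The inverted repeat and the use of protein-coding transcripts alone were chosen after the sequences and the annotation were seen. No tests were made. Alternatives covered the distance, the assignment, the threshold, single replicates and the sequence window.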

Additional observations from a re-analysis of the deposited data

How the results depend on the processing

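Both set-16 and ash-2 had a peak under every alternative tried except assignment to the nearest 5' end only, which left 1 gene, set-16, because the annotated 5' end of Y17G7B.20 is 6 bp nearer to the ash-2 summit than that of ash-2. With genes drawn from their protein-coding transcripts only, an alternative added after the data were seen, the nearest 5' end was that of ash-2 and both genes kept their peak. For many of these alternatives the outcome was fixed in advance, so they do not test the result. The set-16 summit lay 166 bp from the 5' end and the ash-2 summit inside the gene. The other distances and the wider assignment rules could therefore not remove either peak. The outcome was also fixed for 2 alternatives on the list of regions. The 415 highest pooled nuclear regions are the peaks themselves, since the pooled list holds no mitochondrial region. Ranks 25 and 81 lie within the upper 207 peaks. The share of all protein-coding genes with a peak was 1.89% within 500 bp, 5.24% within 5000 bp, 1.61% with the nearest 5' end only (1.61% also with protein-coding transcripts) and 1.52% with the upper 207 peaks. The rank of the set-16 peak ranged from 23 without replicate 1 to 56 without replicate 2, and the highest region within 100 bp in replicate 1 had the same rank 56. Here and below, ranks without 1 replicate are those in the other replicate's own list. The genes with any region numbered from 5, among the 10000 highest regions, to 7, within 5000 bp or without replicate 2, when wdr-5.1 was added. The rank of a gene's highest region also moved. With the nearest 5' end only, that of ash-2 went from 81 to 2074. For set-2 it went from 2939 to 16752 within 500 or 1000 bp or with the nearest 5' end only, to 12667 without replicate 1 and to 13354 without replicate 2. For cfp-1 it went from 7921 to 17651 within 500 or 1000 bp and to 1484 within 5000 bp, and for rbbp-5 from 7111 to 17583 without replicate 1 and 4002 without replicate 2. The share of peaks with the inverted repeat was 2.89% in windows of 100 bp and 5.06% in windows of 400 bp, against 0.223% and 0.953% of regions below the threshold. Shares of the other motifs depend on the window too: AGGTCA was in 1.45% of peaks at 100 bp and 9.16% at 400 bp, against 2.34% and 9.56% of pooled regions, and TATAAA in 6.27% and 34.7%, against 11.8% and 39.9%. No paired analysis was possible because there was 1 group. With 2 replicates and no read depth, differences in rank between the lists cannot be given an error.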

Other observations

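The inverted repeat was in 13 peaks besides those by set-16, ash-2, set-26 and jmjd-1.2. The genes with the nearest 5' ends included those of the ribosomal proteins rpl-15 and rpl-11.2, of the translation elongation factors eef-2 and eef-1G, of a subunit of the mitochondrial ATP synthase, atp-1, of the actin capping protein, cap-2, of the nucleoside diphosphate kinase ndk-1 and of the cohesin release factor wapl-1. The others were tag-340, F36A2.9, T04C4.3, hat-1 and trap-3. The highest was the rpl-15 peak, with signal 116.7 at pooled rank 20. The tag-340 peak, at rank 43, held 2 copies, as the set-16 peak did. Of the 17 peaks with the repeat, 13 lay between divergent starts, and 14 with protein-coding transcripts only, where the ash-2 peak was added. Over all 415 peaks the counts were 160 (38.6%) and 161 (38.8%). The 17 include the set-16 and ash-2 peaks, in which the repeat was noticed. The median distance from the nearest copy to the summit was 26 bp. The repeat was in 1 of 89 peaks on X and in 16 of 326 autosomal peaks (4.91%). Among the 25 highest peaks 2 held it, those by rpl-15 and set-16, and the 4 peaks most like the set-16 peak in rank did not hold it.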
